A study of Mus musculus with 2 samples.

Results

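Retained-intron transcripts are annotated RNAs of a gene that keep sequence which other transcripts of the same gene remove as an intron. They were taken as every transcript of GENCODE type retained_intron, a rule that uses no measured value. The rule found 21848 of 141767 annotated transcripts, and all 21848 were matched by transcript identifier in both deposited transcript tables. They belong to 9421 genes, of which 9119 are protein-coding.

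Introns are normally cut from a pre-mRNA by the spliceosome before the RNA leaves the nucleus. A transcript that keeps an intron may be held in the nucleus, finish splicing later, or be exported and degraded when the intron brings a stop codon into the reading frame. Total RNA also contains nuclear pre-mRNA that is still being spliced, and reads from it fall on the same intronic bases.

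The samples were the left cerebral cortex of 2 female mice of strain B6CASTF1/J, a first-generation hybrid of the C57BL/6 and CAST strains obtained from The Jackson Laboratory, aged 25 days. No treatment is given, and both animals form 1 group, replicates 1 and 2. Each library was made from 300 ng of total RNA with ERCC spike-ins, whose named profile is for stranded libraries reduced in ribosomal RNA. The labels give the tissues separate animal numbers but cite the same donor for both. Here they count as separate animals by those numbers, and otherwise the difference between libraries is one of preparation only. With 1 group of 2 there is no contrast between conditions and no test, so both values are given and differences are described by size.

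The authors quantified each library from reads aligned to the transcriptome (the alignment-based table, 31301125 and 27182336 expected counts) and directly from the reads (the FASTQ-based table, 31509602 and 28037421 estimated counts). Both tables divide reads that fit several transcripts by a model, and both come from the same reads, so their agreement is no independent replication. Levels are in TPM, a unit that scales by transcript length and by the size of the library. Where a transcript has 0 counts, up to 3 remain possible, or 0.0958 CPM (counts scaled to library size) in replicate 1 and 0.110 CPM in replicate 2. Such floors and the exact intervals below cover counting error only, since the reads carry no molecular identifiers. They do not cover the division of reads between transcripts. Genes for cortical cell types were present, such as Slc17a7 of projection neurons at a gene TPM of 595.6 and 639 and Gad1 of inhibitory neurons at 172 and 148.

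The annotated structures bore out the type for most transcripts. Of the 21848, 6464 (29.6%) held at least 1 whole intron of a protein-coding transcript of their gene. A further 7174 (32.8%) ended inside such an intron, 5266 (24.1%) started inside it and 2032 (9.30%) did both. The remaining 912 (4.17%) did neither. Their median length was 881 nt, against 1816 nt for protein-coding transcripts, and 2334 consisted of a single exon. A gene had a median of 2, and Gas5, a small nucleolar RNA host gene, had the most with 20. What sets such a transcript apart are its private bases, here those in no exon of any transcript of another type of the gene. The median was 350 private bases, or 40.9% of the transcript.

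The wholly retained introns were short, but the rule that defines them favours short introns. An intron counted only if it lay whole within a retained-intron transcript. The 6464 transcripts that held one had a median length of 1819 nt, against 881 nt for all retained-intron transcripts. Introns that were kept only in part were counted among the other introns. How much of the length difference below comes from this rule was not tested. The 8652 different wholly retained introns, in 3966 genes, had a median length of 279 nt. The other 131958 introns of protein-coding transcripts came from among the 9421 genes with any retained-intron transcript, not from the 3966 alone. They had a median of 1493 nt, and 83694 introns of other genes a median of 1592 nt. Lengths of at most 150 nt made up 31.2% of the retained introns. They made up 9.39% of the other introns of the 9421 genes and 7.23% of introns elsewhere. Of the retained introns 98.2% began with GT and ended with AG, the common splice site bases, while 102 were GC-AG and 12 were AT-AC. Their median GC content was 51.4%. Most, 7941 (91.8%), lay between coding exons. Reading on from the upstream exon met an in-frame stop codon inside the intron in 6852 of 7699 introns with a known frame (89.0%). The 847 without a stop had a median length of 94 nt, and 227 of them had a length that is a multiple of 3. A small RNA gene lay inside 74 introns, a snoRNA gene in 47 and a miRNA gene in 26.

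**Figure D1:**
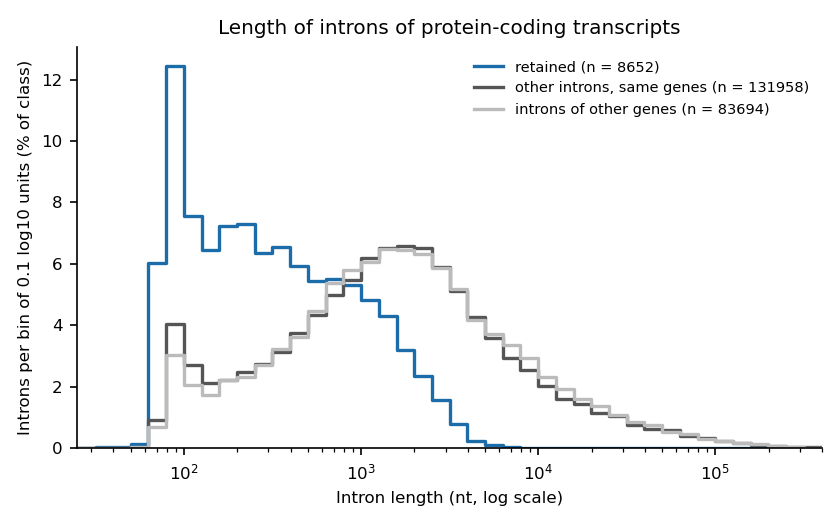
Distribution of intron length (nt, log scale) for the 8652 retained introns, the 131958 other introns of the same genes and the 83694 introns of other genes, as percent of each class per length bin. The retained introns have their median at 279 nt and lie to the left of the other classes, whose medians are 1493 and 1592 nt. Only introns lying whole within a retained-intron transcript count as retained, which favours short ones.

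Examples of wholly retained introns show what these bases are. They were read from the GENCODE M21 transcript sequences on mm10 and are written 5′ to 3′ on the strand of the gene. Capitals mark the first and last bases of the intron at the splice sites and, where present, the first in-frame stop codon. Rps16-202 (chr7:28352274-28352362, plus strand, 89 nt) and Rps20-202 (chr4:3835010-3835191, minus strand, 182 nt, holding the snoRNA gene Gm24016) are from genes of the small ribosomal subunit. Ncl-202 (chr1:86352320-86352509, minus strand, 190 nt) is from the gene of nucleolin, Clk4-213 (chr11:51275579-51275769, plus strand, 191 nt) from a splicing kinase and Snrnp70-208 (chr7:45392134-45392262, minus strand, 129 nt) from the U1 snRNP 70K protein. Prelid1-202 (chr13:55324445-55324526, plus strand, 82 nt), chosen after its values were seen, has no in-frame stop. The stop codon begins at intron position 2 in Ncl-202, 12 in Clk4-213, 19 in Snrnp70-208, 30 in Rps16-202 and 72 in Rps20-202.
Rps16-202: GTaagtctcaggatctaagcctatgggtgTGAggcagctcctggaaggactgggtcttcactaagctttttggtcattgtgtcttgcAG
Rps20-202: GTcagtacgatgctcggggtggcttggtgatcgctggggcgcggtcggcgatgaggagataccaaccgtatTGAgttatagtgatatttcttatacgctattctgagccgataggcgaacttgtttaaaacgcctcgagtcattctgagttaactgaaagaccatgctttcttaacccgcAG
Ncl-202: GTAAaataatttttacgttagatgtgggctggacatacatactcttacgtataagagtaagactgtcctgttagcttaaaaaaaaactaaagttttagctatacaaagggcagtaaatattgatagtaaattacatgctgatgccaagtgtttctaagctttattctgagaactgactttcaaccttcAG
Clk4-213: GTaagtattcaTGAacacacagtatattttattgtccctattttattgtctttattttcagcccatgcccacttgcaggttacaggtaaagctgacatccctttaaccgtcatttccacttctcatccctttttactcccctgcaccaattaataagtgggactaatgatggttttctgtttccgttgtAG
Snrnp70-208: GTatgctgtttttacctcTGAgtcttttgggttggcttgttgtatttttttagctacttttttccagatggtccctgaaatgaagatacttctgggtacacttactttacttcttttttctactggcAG
Prelid1-202: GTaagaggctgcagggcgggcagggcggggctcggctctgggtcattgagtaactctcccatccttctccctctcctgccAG

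The most abundant retained-intron transcripts had another structure. Most start inside an intron, run through its end and then share their exons with the coding transcript. For 5 such transcripts the intronic bases at the start, all upstream of a coding exon, are printed with the AG of the 3′ splice site in capitals, followed by the next 9 exon bases in lower case. Uchl1-202 (chr5:66676892-66676943, plus strand, 52 intronic bases) is from the gene of a neuronal ubiquitin hydrolase and Ctsb-202 (chr14:63135518-63135607, plus strand, 90 bases) from that of the lysosomal protease cathepsin B. Rps16-203 (chr7:28350924-28350991, plus strand, 68 bases) is from a ribosomal protein gene. Itm2b-202 (chr14:73368428-73368505, minus strand, 78 bases) is from a membrane protein gene and Cox7b-203 (chrX:106019391-106019578, plus strand, 188 bases) from a cytochrome c oxidase subunit gene. These bases are all or nearly all of the private bases of each transcript: 52 of 980 nt in Uchl1-202, 68 of 518 nt in Rps16-203 and 188 of 526 nt in Cox7b-203.
Uchl1-202: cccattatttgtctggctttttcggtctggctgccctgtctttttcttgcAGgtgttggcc
Ctsb-202: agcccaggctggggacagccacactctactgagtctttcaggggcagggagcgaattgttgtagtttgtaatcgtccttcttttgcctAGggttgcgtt
Rps16-203: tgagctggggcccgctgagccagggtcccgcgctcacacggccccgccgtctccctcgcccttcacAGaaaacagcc
Itm2b-202: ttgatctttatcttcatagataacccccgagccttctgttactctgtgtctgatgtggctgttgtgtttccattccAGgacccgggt
Cox7b-203: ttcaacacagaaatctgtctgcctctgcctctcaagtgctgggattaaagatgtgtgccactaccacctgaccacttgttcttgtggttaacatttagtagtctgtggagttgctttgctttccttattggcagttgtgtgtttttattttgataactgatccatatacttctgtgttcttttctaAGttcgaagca

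Retained-intron transcripts took 3.35% of the alignment-based counts in replicate 1 and 3.87% in replicate 2 (mean 3.61 ± 0.367%, SD, n = 2). Their FASTQ-based share of counts was 3.60% and 4.14% (3.87 ± 0.387%, n = 2). Of the alignment-based TPM they held 3.79% and 4.37% (4.08 ± 0.413%, n = 2), and of the FASTQ-based TPM 6.69% and 7.65% (7.17 ± 0.673%, n = 2). The quantifications thus differed little in the share of reads and by more than the libraries did in the share of TPM. The annotation class misc_RNA took 31.9 ± 0.512% of TPM (n = 2) in the alignment-based table, and 0.00403 ± 0.00437% (n = 2) in the FASTQ-based one. Protein-coding transcripts held 40.8 ± 0.241% of alignment-based and 63.1 ± 0.738% of FASTQ-based TPM (n = 2).

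Replicate 2 was higher in all 4 of these measures, with a ratio of 1.15 for both shares of counts and for alignment-based TPM and of 1.14 for FASTQ-based TPM. Beside them the ratio of alignment-based TPM was 1.01 for protein-coding transcripts, 1.06 for the type processed_transcript and 1.04 for nonsense_mediated_decay. It was 1.14 for lincRNA and 1.33 for TEC, the annotation's class of mostly unspliced transcripts awaiting experimental check. In FASTQ-based TPM the ratio was 0.984 for protein-coding transcripts, 1.12 for processed_transcript, 0.963 for nonsense_mediated_decay, 1.15 for lincRNA and 1.31 for TEC. There processed_transcript lay close to retained-intron transcripts. In bulk tissue fewer cells of a type and less RNA per cell cannot be told apart, and with 1 library per animal no test of this difference exists.

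**Figure D2:**
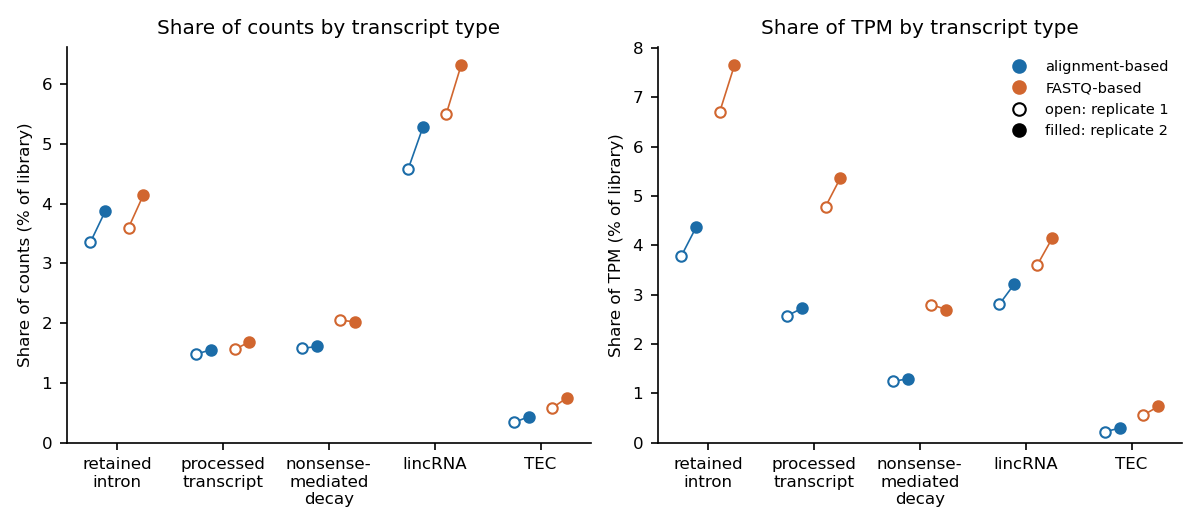
Share of counts (left, % of the library) and of TPM (right, % of the library) for retained-intron transcripts and 4 other types, with open points for replicate 1 and filled points for replicate 2. Retained-intron transcripts stand at 3.35% and 3.87% of alignment-based counts and at 6.69% and 7.65% of FASTQ-based TPM, higher in replicate 2 in each pair of points.

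Of the 21848 transcripts, 7902 (36.2%) reached an alignment-based TPM of 1 in both libraries, where 25.9% of all annotated transcripts did. From the reads 9861 (45.1%) did, beside 31.1% of all transcripts. FASTQ-based TPM ran higher, with a median of 2.81 against 1.785 over retained-intron transcripts detected in either table. A TPM of 1 is therefore an unlike cut in the tables. The quantifications shared 6468 of these, which is 81.9% of the alignment-based and 65.6% of the FASTQ-based set. For all annotated transcripts the overlap was similar, at 81.8% and 68.3%. By alignment 3159 reached a TPM of 1 in a single library, 8011 were above 0 but below 1 in both, and 2776 were listed at 0 in both. Both tables listed 1803 at 0 in both libraries.

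Most detected transcripts were scarce. Their median alignment-based TPM was 2.44, against 6.52 for detected protein-coding transcripts. Only 436 reached a TPM of 10 in both libraries and 12 a TPM of 100. The 10 highest held 3.63% of all retained-intron TPM, and 1729 transcripts were needed to reach 50% of it.

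Uchl1-202 was the most abundant by the alignment-based table, with a TPM of 278 in replicate 1 and 255 in replicate 2, and the authors' deposited interval for replicate 1 ran from 255 to 282. The FASTQ-based table listed it at 0 in both libraries. Prkcb-208, of the gene of protein kinase C beta, followed with 203 and 208, and its FASTQ-based TPM was 195 and 213. Hspa8-204, of a constitutive heat shock protein, had 144 and 134 by alignment but 6.32 and 4.29 from the reads. The libraries were thus close to each other within a table for all 3, while the tables lay close for Prkcb-208 alone.

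Others among the 10 highest were Ppia-203 (cyclophilin A), Atp5j-208 (a subunit of the mitochondrial ATP synthase), Itm2b-202, Rps16-203 and Ctsb-202, at a TPM between 111 and 140 in every library. Of the 10, none held a whole intron, 9 started in an intron, and 6 had under 20% private bases. The FASTQ-based table put 4 of the 10 under a TPM of 0.1.

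By FASTQ-based TPM the 10 highest included Cox6a1-202, Tpt1-207, Rpl37a-204, Cox7b-203, Rps25-203, Rps16-203, Rpl31-204, Rpl23a-202 and Ptms-203, most of them from genes of ribosomal proteins and cytochrome c oxidase subunits. The sets of 10 share 2 transcripts, of which Rps16-203 is one. Rps16-203 had 117 and 113 by alignment and 318 and 312 from the reads. Cox6a1-202 had 442 and 566 from the reads and 5.19 and 4.13 by alignment, and Rps25-203 had 342 and 320 against 1.33 and 3.03. Rpl23a-202 differed between libraries as well, with 511 in replicate 1 and 69.3 in replicate 2 from the reads and 24.2 and 11.5 by alignment.

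Transcripts at the extremes were seen in a single table. Among those with a FASTQ-based TPM under 0.1, the 5 highest by alignment included Uchl1-202, Ppia-203 (140 and 139), Atp5j-208 (134 and 136) and Rps18-210 (97.2 and 116). All 5 were listed at 0 in both FASTQ-based libraries. In the reverse case the highest were Gstp1-206 (115 and 80.9 from the reads), Lars2-205 (64.1 and 60.5), Myl6-207 (12.4 and 59.4), Fau-207 (70.2 and 0) and Car11-205 (16.7 and 38.0). Of these, Lars2-205 had an alignment-based TPM of 0.07 in replicate 1 and 0 in replicate 2, and the other 4 were listed at 0 in both.

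Agreement between the tables went with the share of private bases. Over 11295 transcripts that reached a TPM of 1 in both libraries of either table, the mean TPM of the tables lay within 2-fold on the log2(TPM + 1) scale for 75.3%. For all annotated transcripts chosen the same way it was 65.4%. By Pearson's r between the tables the order was reversed, at 0.471 for retained-intron transcripts and 0.601 for all annotated transcripts. The median alignment-based TPM was 1.785 and 2.535, and on this scale low levels lie within 2-fold more easily. The median FASTQ-based TPM was higher, at 2.81 and 4.33. The tables were not brought to a common scale, so the share within 2-fold carries this offset. From the fifth of the scale with 0 to 20% private bases to that with 80 to 100%, the share within 2-fold was 60.4%, 69.4%, 78.6%, 85.7% and 90.8%. Across transcripts, which share libraries and reads and are not replicates, Pearson's r of the tables was 0.363, 0.390, 0.561, 0.711 and 0.809 (n = 2485, 2773, 2482, 1988 and 1567). The share with a FASTQ-based TPM under 0.1 was 12.03%, 8.40%, 3.30%, 0.905% and 0.128%. The median alignment-based TPM was 2.50 in the lowest bin and 1.26 in the highest, and the part of level in this order was not tested.

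By structure, transcripts that start in an intron agreed least, with 52.5% of 2457 within 2-fold and 17.6% under a FASTQ-based TPM of 0.1. Those holding a whole intron (81.8% of 3572) and those ending in an intron (83.0% of 3815) were close to each other. The libraries agreed better than the tables. Over 11061 transcripts with an alignment-based TPM of at least 1 in either library, Pearson's r of log2(TPM + 1) between replicates was 0.838 and Spearman's rho 0.735. Over 13215 with a mean TPM of at least 1 in either table, r between the tables was 0.498 and rho 0.503.

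**Figure D3:**
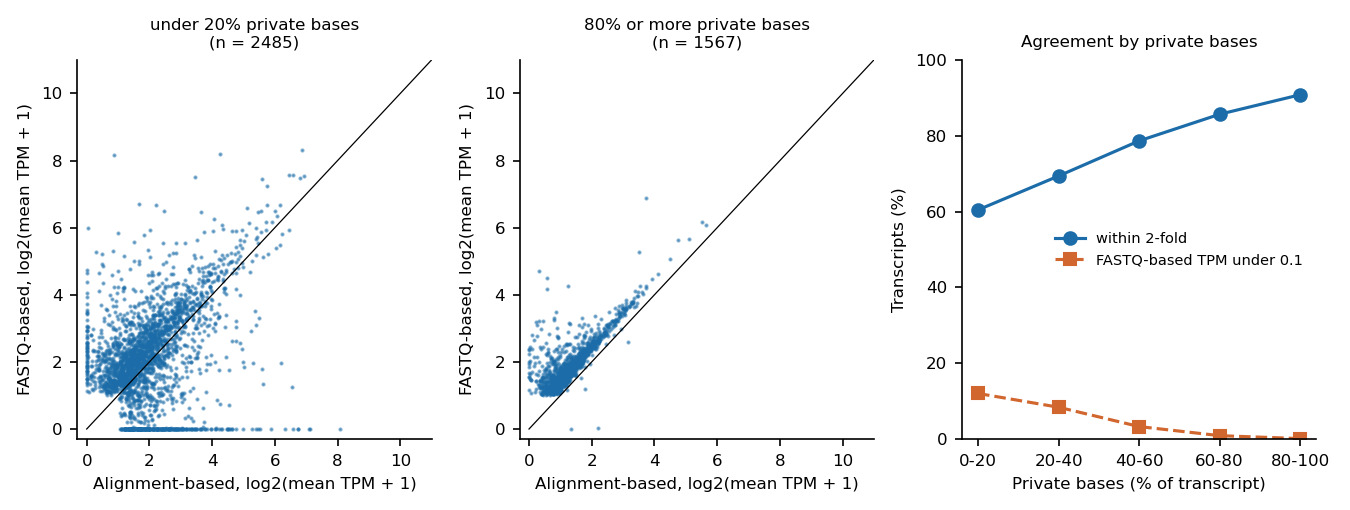
Mean TPM of each transcript in the alignment-based (horizontal) and FASTQ-based table (vertical), as log2(mean TPM + 1), for transcripts with under 20% private bases (left) and with 80% or more (middle), with the line of equality, and the percent of transcripts within 2-fold or under a FASTQ-based TPM of 0.1 in each bin of private bases (right). The points spread widely and many lie at a FASTQ-based value of 0 on the left, while 90.8% lie within 2-fold in the highest bin.

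In 351 of 7625 genes tested (4.6%), retained-intron transcripts together held at least 50% of the gene's alignment-based TPM in both libraries. A gene was tested when its TPM was at least 1 in both libraries and it also had a transcript of another type. The FASTQ-based table gave 455 of 8009 genes (5.68%). Both tables gave 204 genes, 58.1% of the alignment-based and 44.8% of the FASTQ-based set. The median share over tested genes was 11.5% in replicate 1 and 13.5% in replicate 2. A single retained-intron transcript, not required to be the same one in both libraries, reached 50% in each library in 102 genes. Counting only transcripts with at least 50% private bases, an alternative added after the data were seen, left 32 genes by alignment, 107 from the reads and 25 in both.

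Among the 330 of these 351 genes with a protein-coding transcript, the 12 of highest TPM included Uchl1, Uqcrh, Ctsb, Rps16, Snrnp70, Atp5j, Stk25, Chchd10, Cox7b, Ndufc1 and Rps18. Several encode mitochondrial or ribosomal proteins. The tables parted on most. Retained-intron transcripts held 73.8% and 71.7% of Uchl1 by alignment but 1.84% and 2.44% from the reads. For Uqcrh, a subunit of respiratory complex III, the shares were 55.5% and 56.1% against 1.13% and 1.32%. Ndufc1, a complex I subunit, had 63.1% and 59.1% by alignment, and its only retained-intron transcript, Ndufc1-203, was listed at 0 from the reads.

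The 6 highest genes dominated in both tables were Ctsb, Rps16, Cox7b, Rps20, Atp6v1d and Gabarapl2. Rps20, of the small ribosomal subunit, had 95.6% and 95.6% by alignment and 98.7% and 98.7% from the reads. By alignment most of it was Rps20-201, which keeps a 192 nt intron, at a TPM of 101 and 102, with Rps20-202 at 19.6 and 20.8. From the reads Rps20-201 had 212 and 153 and Rps20-202 had 148 and 204, so a different one of them led in each library. Rps16 had 99.0% and 98.3% by alignment and 83.4% and 83.4% from the reads. The retained intron of Rps16-202 took part in that by alignment, at a TPM of 72.4 and 71.6, but not from the reads, at 4.58 and 1.28. Cox7b, whose only retained-intron transcript is Cox7b-203, had 56.6% and 59.4% by alignment and 99.5% and 99.4% from the reads.

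Ctsb had 59.2% and 59.3% by alignment and 61.4% and 62.6% from the reads, so its 4 values lay within a few points. Atp6v1d, a subunit of the vacuolar proton pump, had 70.7% and 73.3% by alignment and 80.9% and 81.1% from the reads. Gabarapl2, of the autophagy-related Atg8 family, had 56.4% and 56.2% by alignment and 54.3% and 54.8% from the reads. In these 3 genes the leading retained-intron transcript, Ctsb-202, Atp6v1d-202 or Gabarapl2-203, starts in an intron and has 11.4%, 11.2% and 12.3% private bases.

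**Figure D4:**
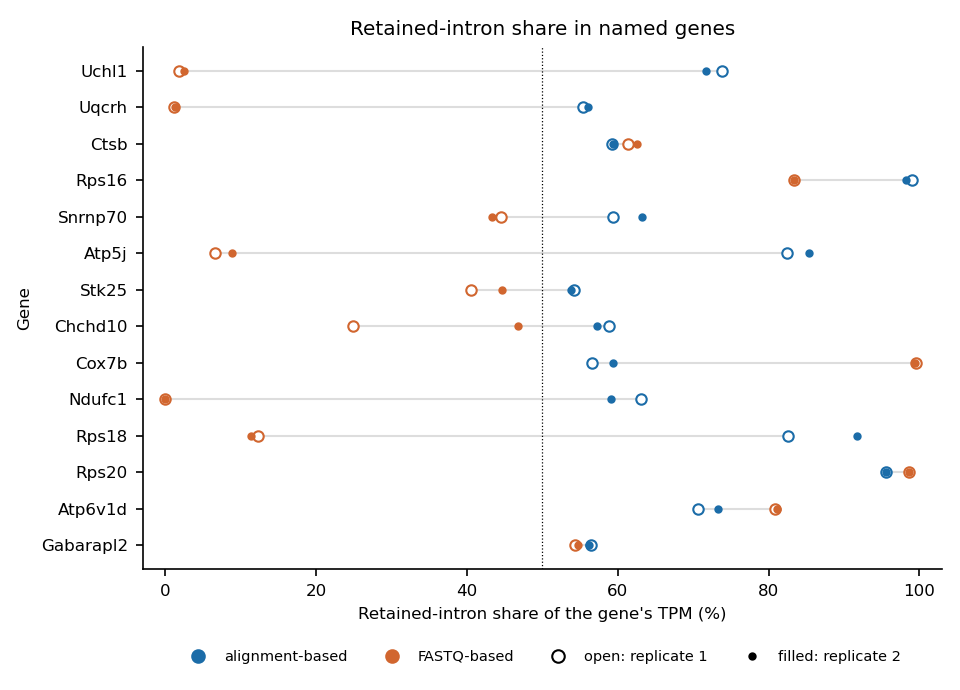
Retained-intron share of the gene's TPM (%) in 14 genes, 11 of the 12 highest of the alignment-based call followed by the 3 further genes of the 6 highest called in both tables, with open points for replicate 1, filled points for replicate 2 and a dotted line at 50%. The replicates lie within 5 percentage points except for Chchd10 in the FASTQ-based table (24.9% and 46.8%) and Rps18 in the alignment-based one (82.5% and 91.7%), while the tables lie at least 40 points apart for Uchl1, Uqcrh, Atp5j, Cox7b, Ndufc1 and Rps18.

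Cytosolic ribosomal protein genes were dominated in 6 of 66 cases tested by alignment (9.09%) and in 7 of 66 from the reads, beside 4.6% and 5.68% of all genes. By both tables it was 2 of 66, beside 204 of the 7625 genes tested by alignment, which is a similar rate. Many of these genes have near-identical pseudogene copies whose reads the tables divide differently. The named pseudogenes of Rps16 summed to a TPM of 64.7 and 52.4 by alignment and were listed at 0 from the reads, so the shares of Rps16 are uncertain. Rps18 likewise had 21.5 and 19.3 in its pseudogenes by alignment and 0 from the reads.

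Genes of splicing kinases and SR proteins had larger retained-intron shares than the median gene, while those of core spliceosome proteins lay near it. Over all tested genes the median of the mean share per gene was 12.6% by alignment and 13.4% from the reads, and the lists below are described beside it. The CLK, DYRK and SRPK kinases, which phosphorylate splicing factors, had a median of 47.6% and 37.2% over 8 genes. Of their 35 retained-intron transcripts 26 were detected by alignment, where 36.2% of all retained-intron transcripts were. That 36.2% also covers genes below a TPM of 1, while all 8 of these genes reached it in both libraries, so the backgrounds are unlike. Clk4 was dominated in both tables, with 64.7% and 55.1% by alignment and 54.4% and 55.2% from the reads. Clk1 had 44.6% and 51.8% by alignment and 52.8% and 57.1% from the reads, so it was called from the reads alone. Srpk3 was dominated in both at a low gene TPM of 4.08 and 4.81. The most abundant transcripts were Clk4-207 (14.2 and 12.1), which ends in an intron, and Clk1-204 (10.1 and 12.2), Clk4-213 (6.81 and 6.81) and Clk3-203 (6.88 and 6.14), which hold whole introns.

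The SR proteins, splicing factors with serine and arginine repeats, had a median share of 30.4% by alignment and 28.6% from the reads over 10 genes. Of their 31 retained-intron transcripts 23 were detected by alignment, again beside 36.2% of all. All 10 genes likewise reached a TPM of 1 in both libraries, so this background too is unlike. Srsf11 was dominated in both tables, with 69.1% and 73.1% by alignment and 51.1% and 63.1% from the reads. Srsf5-212 was the most abundant, at a TPM of 37.0 and 40.9 by alignment and 52.2 and 60.01 from the reads, followed by Srsf2-203 at 20.2 and 19.6. Both keep whole introns. Srsf11-208, at 13.9 and 18.7, ends in an intron and is private over 82.3% of its length.

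A list of genes known from earlier work on detained introns, which are kept in nuclear transcripts, had a median of 35.5% and 31.5% over 16 genes. It shares Clk1 and Clk4 with the kinases. Ccnl2, a cyclin of splicing-associated kinases, had 62.7% and 68.7% by alignment and 67.1% and 72.5% from the reads. Its relative Ccnl1 had 59.5% and 58.1% by alignment and 44.6% and 68.5% from the reads. Ogt-204, of the gene of O-GlcNAc transferase, had the highest level of the list, with a TPM of 24.3 and 29.5 by alignment and 40.1 and 47.0 from the reads. Rbm39-205 and Rbm5-219, from genes of RNA-binding proteins, had 17.0 and 20.6, and 12.4 and 17.0, by alignment.

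U snRNP and SF3 proteins, core parts of the spliceosome, had a median of 13.4% and 12.7% over 25 genes, close to that of all genes. By alignment 2 of the 25 were dominated, Snrnp70 and Snrpb2, and from the reads none was, beside 4.6% and 5.68% of all genes. Snrnp70 had 59.4% and 63.2% by alignment and 44.5% and 43.4% from the reads, spread over 9 retained-intron transcripts. Snrpb2, of a U2 snRNP protein, had 63.5% and 57.8% by alignment but 15.5% and 6.76% from the reads. Snrnp70-216 had 34.7 and 48.9 by alignment and 53.7 and 71.8 from the reads, and 57.5% of its bases are private. Snrnp70-209 had 22.9 and 29.0 by alignment and 49.5 and 48.4 from the reads. Nuclear body and related RNA-binding proteins had a median of 15.5% and 14.5% over 12 genes. Srrm2-209 had 33.6 and 55.1 by alignment and 4.71 and 75.04 from the reads.

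Small nucleolar RNA host genes had a median of 15.3% by alignment and 27.0% from the reads over 15 genes. Ncl was dominated in both tables, with 76.4% and 75.9% by alignment and 55.1% and 59.2% from the reads. Ncl-202 made up most of this, with a TPM of 40.5 and 41.2 by alignment and 59.5 and 56.2 from the reads. Its libraries differed by less than the tables did. Hspa8-204, the most abundant of the list, is described above.

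The lowest median of the lists was that of genes with introns known to be regulated by polypyrimidine tract binding protein, many of them for synaptic proteins, at 1.53% by alignment and 0.769% from the reads over 6 genes. Snap25-203, of a protein of the synaptic fusion machinery, is private over 93.4% of its length and had a TPM of 7.36 and 7.66 by alignment and 11.03 and 11.2 from the reads. It was 0.67% and 0.68% of its gene's alignment-based TPM by the authors' deposited isoform percent. Dnm1-211, of a dynamin, was the most abundant with 32.5 and 34.5 by alignment and 89.5 and 101 from the reads.

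Neuronal splicing regulators had a median of 8.51% and 7.40% over 17 genes, and hnRNP proteins, another family of splicing factors, 7.56% and 9.38% over 16. Celf5-207 led the former with 26.1 and 35.5 by alignment but 5.94 and 0.000111 from the reads. Hnrnpk-215 led the latter with 35.5 and 38.5 by alignment and 8.19 and 4.82 from the reads. Both start in an intron and have under 10% private bases. Glutamate and GABA receptor genes had a median of 10.3% and 8.80% over 10 genes. Gria2-206 and Gria2-204, of an AMPA receptor subunit gene, had 30.7 and 37.5, and 16.5 and 23.8, by alignment, both higher in replicate 2, and in the FASTQ-based table they were higher in replicate 2 as well, with 41.5 and 49.9, and 23.7 and 33.2.

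Gene by gene, the retained-intron share was more often higher in replicate 2. It was higher in 5090 of 7500 genes by alignment (67.9%), with a median difference of 1.35 percentage points, and in 5134 of 7663 from the reads (67.0%, 1.43 points). The share of processed_transcript was higher in 55.9% of 5110 genes and 61.0% of 4963 by these tables, that of nonsense_mediated_decay in 51.0% and 49.9%, and that of protein-coding transcripts in 35.9% and 34.6%. The lists ranged widely around this by alignment, from all 12 nuclear body genes higher in replicate 2 (11 of 12 from the reads) to 1 of 6 immediate early genes. The share was higher in 19 of 25 U snRNP and SF3 genes, 14 of 17 neuronal splicing regulators and 9 of 10 receptor genes. From the reads these were 16, 15 and 10. By alignment it was higher in 10 of 16 hnRNP genes, 3 of 6 genes with polypyrimidine tract binding protein-regulated introns and 6 of 10 SR protein genes. It was higher in 5 of 8 kinase genes, 9 of 16 detained-intron genes and 9 of 15 small nucleolar RNA host genes. From the reads these 6 counts were 12, 4, 6, 6, 13 and 7, so the order of the lists depends in part on the table. The 2 libraries are a single pair, so these counts describe them and not a condition.

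The difference was larger where more of the transcript was private. From 0 to 20% to 80 to 100% private bases, the ratio of summed alignment-based TPM, replicate 2 over replicate 1, was 1.07, 1.14, 1.23, 1.26 and 1.28. From the reads it was 1.14, 1.13, 1.13, 1.15 and 1.23, so the order held there only at the upper end. Other measures moved between the libraries too. The share of alignment-based counts from mitochondrial genes was 8.74% in replicate 1 and 7.93% in replicate 2. Mbp of oligodendrocytes had a gene TPM of 586 in replicate 1 and of 903 in replicate 2, and Ttr of choroid plexus was at 96.0 and 4.79. Their part in the retained-intron share was not tested.

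**Figure D5:**
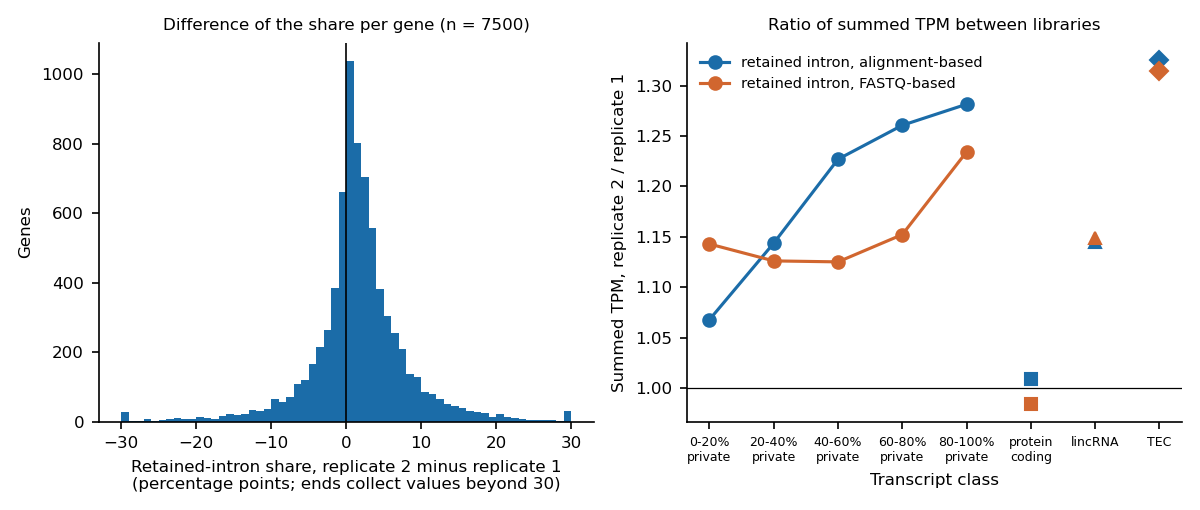
Left, difference of the retained-intron share of a gene's alignment-based TPM, replicate 2 minus replicate 1 (percentage points), over 7500 genes. Right, ratio of summed TPM of replicate 2 over replicate 1 for retained-intron transcripts by private bases (circles) and for protein-coding transcripts, lincRNA and TEC (squares, triangles, diamonds), on an axis that does not start at 0. The genes lean to the right of 0, and the alignment-based ratio goes from 1.07 to 1.28 along the bins.

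Retained-intron transcripts of immediate early genes, which neurons switch on within minutes of activity, had lower levels in replicate 2. All 8 were lower in both tables, beside 20% of the 17016 retained-intron transcripts listed above 0 in each table. Taken singly, 31.8% of retained-intron transcripts were lower by alignment and 32.5% from the reads. Nr4a1-204 had an alignment-based TPM of 4.56 and 0.66 and a FASTQ-based TPM of 7.10 and 1.67. Fosl2-203 had 2.56 and 0.50, Dusp1-204 had 1.97 and 0.84, and Egr3-202 had 22.4 and 18.8 by alignment. Apart from Egr3-202, none of them reached a TPM of 1 in both libraries by alignment. The gene TPM was lower as well, at 57.9 and 36.6 for Nr4a1 and 20.8 and 12.4 for Dusp1. The retained-intron share within the gene, by alignment, was lower in replicate 2 in 5 of the 6 genes. It was 7.87% and 1.80% for Nr4a1 and 21.4% and 8.41% for Fosl2. The differences were smaller for Egr3 (34.6% and 29.9%), Dusp1 (14.2% and 12.1%) and Fosb (6.02% and 4.38%), and Npas4 had 17.6% and 20.9%.

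Large differences of single transcripts between the libraries were rare. At a mean of at least 5 CPM after TMM scaling, 20 of 1498 retained-intron transcripts were at least 2-fold higher in replicate 2, which is 1.34%, as for all annotated transcripts (1.34%). At least 2-fold lower were 12 (0.801%), beside 1.89% of all. From the reads 1.90% of 1681 were higher and 2.26% lower, both below the 3.32% and 4.26% of all 19391 transcripts tested there. The median log2 ratio on the log2(CPM + 1) scale was 0.13, against -0.07 over all 18130 transcripts tested, and 68.2% lay above 0 against 37.9%. With DESeq2 size factors the medians were 0.09 and -0.10, with 62.7% of retained-intron and 32.6% of all transcripts above 0. With library totals they were 0.19 and 0.00, with 75.2% and 50.1% above 0. A scaling factor shifts all transcripts of a library together, so the distance between the medians hardly depends on it.

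The 5 most abundant that were higher were Eif4g1-210, Zfp740-204, Man2a2-202, Mical2-210 and Mical2-207. Mical2-207, of a gene whose product oxidises actin, had 4.61 CPM in replicate 1 and 20.05 in replicate 2, a ratio of 4.35 (exact 95% interval 3.62 to 5.29, from rounded counts). Mical2-210 had 7.47 and 18.0 CPM, a ratio of 2.41 (2.06 to 2.83), and both were also at least 2-fold higher from the reads. The deposited TPM intervals of the libraries did not overlap for Mical2-207 (1.14 to 2.22 and 6.50 to 8.76) or Mical2-210 (2.03 to 2.80 and 5.56 to 6.93). Those of Eif4g1-210 did overlap (1.14 to 8.16 and 4.41 to 11.7). Eif4g1-210 was at least 2-fold higher by alignment, with a ratio of 2.17, but its FASTQ-based count was 1977 in replicate 1 and 757 in replicate 2, the opposite order. Man2a2-202 was listed at 0 in both FASTQ-based libraries.

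The 5 most abundant that were lower were Lnpep-206, Kat5-211, Calr-204, Otof-205 and Pex6-203. Otof-205, of the gene of otoferlin, had 11.8 and 3.52 CPM, which is 3.34-fold lower in replicate 2 (exact 95% interval 2.66 to 4.21). Lnpep-206, of an aminopeptidase gene, had 12.5 and 6.03 CPM, 2.07-fold lower (1.72 to 2.50). The deposited TPM intervals of the libraries overlapped for Otof-205 (1.28 to 3.11 and 0.0340 to 1.64) and for Lnpep-206 (4.75 to 8.41 and 1.47 to 5.33). Calr-204, of the calcium-binding chaperone calreticulin, had 12.2 and 5.40 CPM, but its FASTQ-based count was 627 and 692. Over all members, 8 of the 20 higher (40%) and 5 of the 12 lower (41.7%) met the same rule in the FASTQ-based table. Those 8 and 5 were 25.0% and 13.2% of the FASTQ-based calls. The same rates over all annotated transcripts are not given here, so these values have no background beside them.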

How the data were processed

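Per the labels, total RNA from the left cerebral cortex of 2 mice was sequenced with ERCC spike-ins. Per the accompanying file descriptions, the authors used assembly mm10 and GENCODE annotation M21. No aligner or quantifier is named in the sources used here. Reads of a hybrid strain were thus set against a C57BL/6 reference.

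Per the file headers, the deposited alignment-based transcript table holds an expected count, TPM, an interval of TPM and the percent of the gene's TPM in each transcript. The deposited FASTQ-based table holds an estimated count and TPM. Entries that carry only a number name no gene, took 6.39e-06% and 1.81e-05% of expected counts and stayed out of CPM. Other deposited tables were not used here, and a few transcripts and genes that the naming rule selects are not reported here.

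Structures, introns and sequences came from GENCODE M21. Expected counts were rounded to whole numbers to obtain TMM factors with edgeR 4.0.16 (R 4.3.3) and, as an alternative, DESeq2 1.42.0 size factors. No test was run, because there is 1 group of 2 libraries. The calculations were tested on simulated data, in Python 3.11.15 with numpy 2.4.6, pandas 2.3.3 and scipy 1.17.1. Alternatives covered the table, the minimum TPM, CPM and share, the pseudocount (1), the denominator, the scaling and the definition of an intron.

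Transcripts named are the 10 highest in each table, the 12 highest dominated genes with a coding transcript and the 6 highest called in both tables, the 2 to 4 highest of each gene list, up to 5 higher and 5 lower in replicate 2, the 5 highest seen in a single table for each table, and the retained introns of named dominated genes. Members and lists were chosen with earlier results of these data known.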

Additional observations from a re-analysis of the deposited data

How the results depend on the processing

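The retained-intron share of counts was 3.35% to 3.87% when either replicate was left out, 4.17% of nuclear entries without small structured RNAs and 6.94% within genes that have such a transcript. The share of TPM was 3.79% to 4.37% without either replicate, 7.17% from the reads, 7.74% of nuclear entries without small structured RNAs and 13.5% within those genes. Detected transcripts numbered 8746 to 10217 with either replicate alone and 4029 at a TPM of at least 2. Dominated genes numbered 428 to 520 with either replicate alone, 72 at 75% of gene TPM, 102 with a single transcript holding the share, 204 in both tables and 32 with transcripts of at least 50% private bases, the last chosen after seeing the data. Pearson's r between replicates was 0.719 from the reads, 0.672 with a pseudocount of 0.1 and 0.911 with no filter. Between the tables it was 0.302 with a pseudocount of 0.1, 0.717 with no filter and 0.460 to 0.504 in single replicates. Transcripts at least 2-fold higher and lower in replicate 2 numbered 32 and 38 of 1681 from the reads. These are 1.90% and 2.26%, beside 3.32% and 4.26% of all annotated transcripts. By alignment they numbered 328 and 166 at a mean CPM of at least 1, and 3386 and 2354 with no minimum CPM. With at least 50% private bases they numbered 1 and 1. For these alignment-based settings no share over all annotated transcripts is given here. The median length of retained introns was 290 nt with introns of any other transcript, 261 nt for detected transcripts and 289 nt for those detected in both tables. The causes of these shifts were not tested, beyond the fewer or more transcripts that each setting admits. No paired analysis was possible because there is 1 group. Counts limit single transcripts, as in the interval of 2.66 to 4.21 for Otof-205. So does the choice of table, since 40% of the higher and 41.7% of the lower calls recur from the reads. That recurrence is not given here for all annotated transcripts.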

Other observations

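Some retained-intron transcripts carry small RNA genes inside the intron they keep, and the following were chosen after their values were seen. Eif4a2-218, of a translation initiation factor gene, keeps a 402 nt intron with Snora81 and had an alignment-based TPM of 7.21 and 7.66 and a FASTQ-based TPM of 12.5 and 12.7. Gfra4-207 keeps a 140 nt intron with Mir6973b and had 7.66 and 8.65 by alignment and 12.3 and 13.3 from the reads. Eif4a1-202 keeps an 886 nt intron with Gm22988 and had 3.59 and 3.69 by alignment but 34.9 and 27.0 from the reads. Hspa8-208 keeps 3 introns with Snord14c, Snord14d and Snord14e and was lower in replicate 2 in both tables, at 4.49 and 2.47 by alignment and 7.43 and 4.38 from the reads.

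Of the 25 genes dominated in both tables by transcripts with at least 50% private bases, Spaca6 had the highest gene TPM, 37.8 and 53.3 by alignment, with retained-intron shares of 92.3% and 85.7% by alignment and 69.8% and 75.6% from the reads. Daam2 followed with 50.3% and 53.7% by alignment and 52.6% and 56.0% from the reads. Sclt1 had 53.3% and 59.2% by alignment and 58.1% and 56.4% from the reads. These genes too were chosen after their values were seen.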
